A study of Rattus norvegicus with 31 samples.

Results

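The iodothyronine deiodinases are encoded in the rat by Dio1, Dio2 and Dio3, and each was represented by 1 probe set on the Affymetrix rat genome array: 1369259_at for Dio1, 1369778_at for Dio2 and 1387509_at for Dio3. They were found through the gene symbols of the platform annotation and make up 3 of the 31042 probe sets other than controls. The family was chosen by the Dio3 signal of these same arrays, which stood higher in the estradiol group, so the estradiol differences of Dio3 are given below as a description with no test. A probe set entered the tests if it passed the 40th percentile of an array, called the filter level here, in at least 6 arrays. Dio3 did, and Dio1 and Dio2 did not.

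The arrays measured total RNA of whole testes from LBNF1 rats aged 25 to 27 weeks, and the labels give every group 6 Gy of radiation to the lower abdomen. The sham group held 14 arrays. The ablation group held 11 arrays from rats given a GnRH antagonist, which lowers the gonadotropins and so testosterone, together with flutamide, an antagonist of the androgen receptor. The estradiol group held 6 arrays from rats given the same ablation and estradiol. The labels of those 6 arrays also speak of FSH supplementation while naming estradiol as the agent, and estradiol is taken as the added agent because the title and design of the series name it. Of the 14 sham arrays, 10 are described as control and 4 as irradiated, although the titles call all of them irradiated. The sham and ablation arrays had been deposited before, with another series, and the estradiol arrays were added later, so estradiol and the deposit cannot be told apart. The labels call the arrays of a group biological replicates.

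Thyroid hormone reaches tissues largely as thyroxine, a prohormone. Dio1 and Dio2 take an iodine from its outer ring and so make triiodothyronine, the form that binds the nuclear receptors with high affinity. Dio3 takes an iodine from the inner ring of both hormones and inactivates them. All deiodinases are selenoenzymes, which need the machinery that inserts selenocysteine. Dio3 lies in the imprinted Dlk1-Dio3 region, is abundant in placenta and fetal tissues, and is also expressed in testis, where thyroid hormone is known for its effect on the maturation of Sertoli cells, the somatic cells that nurse the germ line.

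The promoter of Dio3, the member whose signal set the estradiol arrays apart, is shown with the elements found in it. The 250 bases before its annotated start in RefSeq (assembly GRCr8, chr6:135106822-135107071, forward strand) read as follows, with capitals marking the TATA box (TATAAA), the CCAAT box and the GC box (GGGCGG) on either strand.
Dio3 promoter: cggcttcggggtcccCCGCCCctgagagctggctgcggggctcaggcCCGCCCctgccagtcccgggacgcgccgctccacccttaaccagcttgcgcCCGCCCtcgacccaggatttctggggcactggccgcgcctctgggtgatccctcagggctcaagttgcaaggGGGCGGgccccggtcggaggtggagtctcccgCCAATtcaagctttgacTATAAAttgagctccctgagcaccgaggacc
The window held 1 TATAAA with its first base at -31 from the start, 1 CCAAT at -48 and 4 copies of GGGCGG at -235, -203, -152 and -80, the first 3 of them on the reverse strand. TATAAA was found in 12.9% of 33469 windows of the same length, CCAAT in 34.0% and GGGCGG in 30.5%. Its GC content was 68.8%, above that of 90.2% of the windows, whose median was 51.2%. The corresponding window of Dio2 held 1 TATAAA at -220 and neither of the other 2 elements, and that of Dio1 held none of the 3. GGTCA, the half-site that estrogen and thyroid hormone receptors bind, was found in none of the 3 deiodinase windows and in 35.4% of all windows. The full estrogen response element GGTCANNNTGACC (0.0239% of windows) and the direct repeat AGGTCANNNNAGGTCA of thyroid hormone receptors (0.00299%) were also not found there. Both strands were searched, the half-site lies within both full elements, and a match is only a description of these letters. The arrays did not measure binding at any promoter.

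Values are given as deposited, on a logarithmic scale read as log2. The Dio3 signal was -0.31, -0.46, -0.56, -0.34, -0.41 and -0.07 in estradiol arrays 1 to 6. In the 11 ablation arrays it ran from -2.54 over a median of -2.04 to -1.44, and in the 14 sham arrays from -3.43 over a median of -2.14 to -1.85. All 6 estradiol arrays thus lay above every ablation and every sham array. Among the 21269 kept probe sets, 41 (0.193%) had all estradiol arrays above all ablation arrays, 138 (0.649%) had them above all sham arrays, and 9 (0.0423%) had them above both. Since Dio3 was chosen for this pattern, nothing is read from its place among them.

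The Dio3 mean was -0.36 ± 0.17 (SD, n = 6) with estradiol, -1.90 ± 0.40 (n = 11) with ablation alone and -2.27 ± 0.44 (n = 14) with sham treatment. The signal with estradiol was 2.91-fold that of ablation (log2 difference 1.54 ± 0.20 SE) and 3.75-fold that of sham (1.91 ± 0.20). The SE makes no allowance for the choice of Dio3 by this same signal. These folds rest in part on values near background. When low values were raised to the filter level, the differences were 1.33 and 1.49. Both comparisons share the estradiol arrays and are not independent. Which cells of the testis gave the signal was not measured, and in whole testes more cells of a type and more RNA per cell cannot be told apart.

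The rank of Dio3 within its own array showed where the signal lay against background. In the estradiol arrays it stood between the 66.5th and the 75.8th percentile of all probe sets (median 68.3), and every value was 1.34 to 1.86 (log2) above the filter level of its array. The ablation arrays ranged from the 28.6th to the 47.5th percentile, and 5 of 11 were above the filter level. The sham arrays ranged from the 18.5th to the 40.1st percentile, and 1 of 14 was above it, sham array 11 at -1.85 with its level also at -1.85 after rounding. Dio3 was therefore above the filter level in 12 of 31 arrays. Its sham and ablation values are both near background, with group medians at -0.28 and -0.20 (log2) from the filter level.

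**Figure D1:**
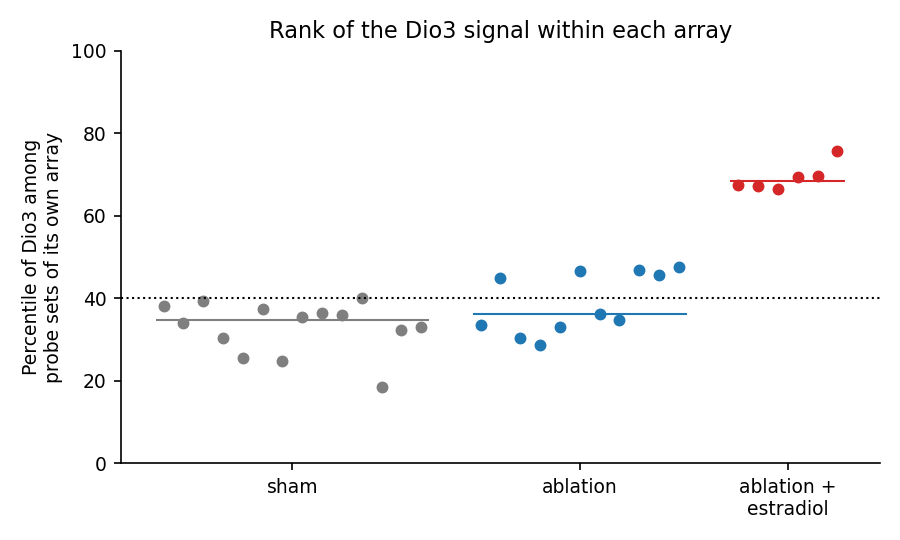
The percentile of the Dio3 signal among the probe sets of its own array (y axis) is plotted for each sham, ablation and estradiol array, with a line at each group's median and a dotted line at the 40th percentile used by the filter. The 6 estradiol arrays sit between 66.5 and 75.8, and the 11 ablation arrays fall into 5 points above the dotted line and 6 below it.

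With ablation alone Dio3 was 0.36 ± 0.16 (SE) above sham on the log2 scale, 1.29-fold, with an interval of 0.031 to 0.70. The difference did not pass the test over all kept probe sets (limma, adjusted p = 0.116), a comparison in which 4128 of 21269 probe sets (19.4%) passed it, 9.15% rising and 10.3% falling. The permutation p of this single value, not adjusted for the other probe sets, was 0.038. With low values raised to the filter level the difference was 0.16 (adjusted p = 0.0815), and against only the sham arrays of the irradiated description it was 0.55 (adjusted p = 0.149). Of the 11 ablation arrays, 8 lay above the sham mean. The ablation values had a gap: arrays 2, 6, 9, 10 and 11 lay between -1.66 and -1.44, above every sham array, and the other 6 between -2.54 and -2.04, within the sham range. The labels name no difference between these ablation arrays.

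Among the sham arrays the lowest Dio3 value, -3.43 in array 12, and the highest, -1.85 in array 11, both came from the 4 described as irradiated. Their mean was -2.45 ± 0.68 (SD, n = 4) and that of the 10 described as control -2.19 ± 0.32. The difference of -0.26 ± 0.29 (SE) had an adjusted p of 1.0 in a limma fit of the sham arrays that called 0 of the kept probe sets (0.0%), with 513 at an unadjusted p under 0.05. Exact 2-sided permutation gave p = 0.374 for Dio3, 0.505 for Dio1 and 0.775 for Dio2.

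Dio1, which supplies circulating triiodothyronine from liver and kidney, did not exceed the filter level in any of the 31 arrays. Its signal ran from -3.39 over a median of -2.78 to -2.24 in sham, from -3.98 over -2.40 to -1.95 in ablation, and from -2.94 over -2.56 to -2.31 in estradiol arrays, so the groups overlapped. The means were -2.80 ± 0.34 (SD, n = 14), -2.69 ± 0.64 (n = 11) and -2.60 ± 0.29 (n = 6). The difference between ablation and sham was 0.11 (95% interval -0.31 to 0.53, permutation p = 0.591), that between estradiol and ablation 0.089 (-0.44 to 0.61, exact permutation p = 0.781) and that between estradiol and sham 0.20 (-0.31 to 0.70, exact permutation p = 0.219). No difference in Dio1 was detectable at this signal, and no fold is given.

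Dio2, the enzyme that makes triiodothyronine inside target cells, was also below the filter level in all 31 arrays. It ran from -5.94 over a median of -4.88 to -3.06 in sham, from -5.26 over -4.18 to -2.35 in ablation, and from -5.16 over -4.36 to -3.17 in estradiol arrays. The group medians stood at the 8.9th, 11.9th and 11.8th percentile of their arrays. Ablation arrays averaged -3.93 ± 1.08 (SD, n = 11), sham arrays -4.82 ± 0.84 (n = 14) and estradiol arrays -4.29 ± 0.64 (n = 6). The ablation mean was 0.90 above sham (95% interval 0.15 to 1.64), 7 of 11 arrays lay above the sham mean and 3 above every sham array. The unadjusted permutation p was 0.031, the smallest of 6 such tests on Dio1 and Dio2, and with all 31042 probe sets in the limma fit the adjusted p was 0.109. Arrays 4, 8, 9 and 11 carried the higher ablation values, and without array 4 the difference was 0.74 with a permutation p of 0.0649. With estradiol Dio2 was -0.36 from ablation (-1.30 to 0.58, exact permutation p = 0.467) and 0.53 from sham (-0.37 to 1.44, p = 0.186).

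**Figure D2:**
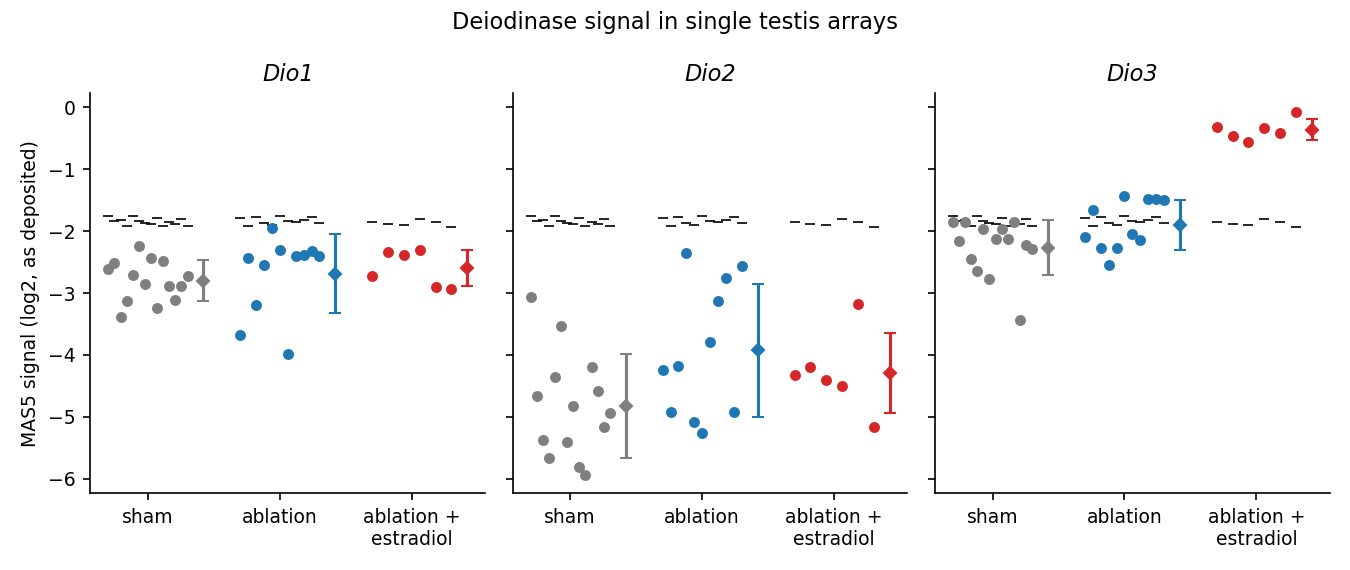
Each point is the log2 signal of Dio1, Dio2 or Dio3 in 1 array, by treatment group, with diamonds and bars for the group mean ± SD and black dashes for the 40th percentile of each array. Dio1 and Dio2 lie below the dashes in all 31 arrays, while Dio3 lies above them in all 6 estradiol arrays, between -0.56 and -0.07.

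The genes whose values followed Dio3 most closely over the 31 arrays, of 11386 compared by Pearson correlation, were Trib2 (r = 0.758), Myom2 (0.754), Stc1 (0.741), Uhrf1 (0.736) and Sox3 (0.715). All 5 had their highest mean in the estradiol group. Dio3 was chosen for being highest there, so this ranking favours genes of the same pattern and nothing is read from it. Trib2, a pseudokinase, averaged 1.21 in sham, 1.35 in ablation and 2.15 in estradiol arrays. Its difference was 0.14 between ablation and sham and 0.80 between estradiol and ablation. Myom2, a sarcomere protein, averaged -2.34, -0.47 and 0.53, and its sham mean lay below the filter level. Stc1, a secreted glycoprotein hormone, averaged -1.06, 0.33 and 1.13. Sox3, a transcription factor of early spermatogonia, averaged -1.77, -0.94 and -0.33. Uhrf1, which maintains DNA methylation, averaged -2.38, -2.22 and -1.45 and is near background in sham and ablation arrays. Within groups the correlations varied. In sham, ablation and estradiol arrays r was 0.453, 0.0301 and 0.177 for Trib2, and 0.6, -0.261 and 0.298 for Myom2. It was -0.00464, 0.622 and -0.137 for Stc1, 0.417, 0.121 and 0.73 for Uhrf1, and 0.372, -0.462 and 0.346 for Sox3.

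When each array's deviation from its group mean was used instead, the closest genes were Tbx19 (r = 0.641 over 31 arrays), Rnft1 (0.616), Srcin1 (0.585), Nhej1 (0.584) and Gpsm2 (0.583), with no gene in common with the first 5. Tbx19, a T-box factor, was positive within every group (0.525 in sham, 0.781 in ablation, 0.863 in estradiol) and averaged -2.74, -2.91 and -1.66. The group means of these 5 lay between -2.91 and -1.28, against filter levels of -1.93 to -1.75. Means below every filter level were those of Tbx19 in sham and ablation arrays, Srcin1 in every group and Nhej1 in sham arrays. Correlations within those groups are of values near background. All these correlations are descriptive, since the arrays share their processing and the genes were taken from the top of a long list.

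None of the tested neighbours of Dio3 on chromosome 6 was called higher in the estradiol group. Of the list of 17 genes of the imprinted Dlk1-Dio3 region and its surroundings, 12 had a tested probe set, none was called by limma between ablation and sham (1 at an unadjusted p under 0.05), 1 between estradiol and ablation and none between estradiol and sham (2 unadjusted), with median differences of 0.047, -0.03 and 0.011. In the order of the 3 comparisons, genes called higher made up 9.23%, 0.729% and 5.28% of the 11387 genes tested and genes called lower 12.8%, 2.73% and 11.9%. An unadjusted p under 0.05 was reached by 33.3%, 13.1% and 28.8% of the 11387 genes. Dlk1, a Notch-related ligand expressed from the paternal copy like Dio3, averaged -1.19 in sham, -1.09 in ablation and -0.89 in estradiol arrays, an estradiol minus ablation difference of 0.20 ± 0.16 (SE, limma adjusted p = 0.572). Meg3, a long noncoding RNA expressed from the maternal copy, averaged -0.05, 0.07 and 0.02 (-0.05 ± 0.16, adjusted p = 0.918).

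The next genes after Dio3 in chromosomal order went the other way. Ppp2r5c, a regulatory subunit of protein phosphatase 2A, fell by 0.41 ± 0.12 between ablation and estradiol (limma adjusted p = 0.0375). The call was lost when any of 8 single arrays was left out (-0.31, adjusted p = 0.182 without estradiol array 6). It was lost too with no filter (limma adjusted p = 0.0508) and with only the compared groups (0.0775). The same held after quantile normalization (0.0609), after centring on array medians (0.0768) and with the replicate block (0.159). LOC102547242, a gene with a provisional name, fell by 0.69 ± 0.17 (limma adjusted p = 0.00794), and its call was not followed through the alternatives. Before Dio3, Begain (0.28 ± 0.18) and Wdr25 (-0.0052 ± 0.21) did not pass the test, and after it neither did Dync1h1 (-0.13 ± 0.12), Wdr20 (-0.10 ± 0.13) or Mok (-0.035 ± 0.11).

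**Figure D3:**
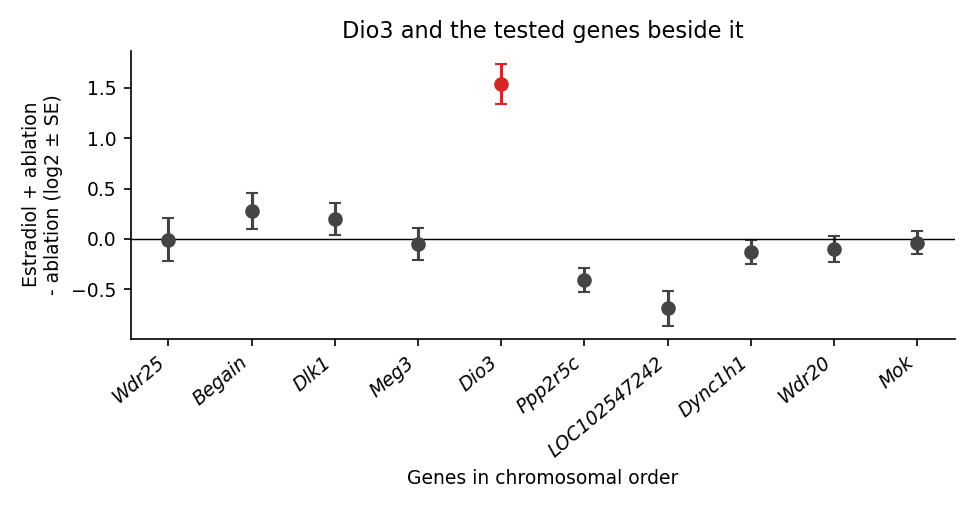
The estradiol minus ablation difference (log2, ± SE) is plotted for Dio3 (red) and the tested genes on either side of it, in chromosomal order without distances. Dio3 stands at 1.54, the 4 genes before it lie between -0.05 and 0.28, and the 5 after it between -0.69 and -0.035.

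Thyroid hormone acts through the receptors Thra and Thrb, and 13 of the 16 listed receptors and cofactors were tested. Between ablation and sham 3 rose and 1 fell (median of the 13 differences 0.0076), between estradiol and ablation none was called by limma, 2 at an unadjusted p under 0.05 (median 0.0057), and between estradiol and sham 1 rose and 1 fell (0.037). Over all 11387 genes the medians were 0.00082, -0.023 and -0.029, and 3791, 1489 and 3279 genes had an unadjusted p under 0.05. Of these 11387 genes, 9.23%, 0.729% and 5.28% were called higher and 12.8%, 2.73% and 11.9% lower. Thra averaged 0.41, 0.32 and 0.45 in sham, ablation and estradiol arrays and passed no test (limma adjusted p of 0.713, 0.784 and 0.928). Thrb rose with ablation from 0.08 ± 0.19 to 0.48 ± 0.16 (SD), 1.32-fold (limma adjusted p = 0.000446), a call lost when only the 4 sham arrays with the irradiated description were used (0.33, adjusted p = 0.0752), and averaged 0.23 ± 0.22 with estradiol (adjusted p = 0.193 against ablation).

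Crym, the cytosolic protein that binds triiodothyronine, gave the largest change of this list. It averaged 0.85 ± 0.23 in sham, 2.00 ± 0.31 in ablation and 1.61 ± 0.21 in estradiol arrays, and all ablation arrays (lowest 1.67) lay above all sham arrays (highest 1.25). Among all kept probe sets, 79 (0.371%) were separated in this way. The rise with ablation was 2.22-fold (limma adjusted p = 3.84e-11), and estradiol arrays were 1.69-fold above sham (adjusted p = 1.82e-05). The difference of -0.39 ± 0.13 (SE) between estradiol and ablation had an adjusted p of 0.0692, and it passed without ablation array 1 or 2 or estradiol array 1 (-0.45, adjusted p = 0.0403 without the last) and without both ends of the first principal component (-0.42, adjusted p = 0.0486). Rxrg, a retinoid X receptor that pairs with thyroid hormone receptors, fell by 0.47 with ablation (adjusted p = 0.00146, but 0.171 with a difference of -0.38 against only the sham arrays whose description says irradiated) and by 0.42 between sham and estradiol (0.0234; -0.35, adjusted p = 0.0943 without estradiol array 3, and lost too without array 1). Med1, a Mediator subunit, rose by 0.25 with ablation (0.0294), which was lost without ablation array 3 or 8 (0.22, adjusted p = 0.0654 without array 8).

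Of 19 listed transporters and binding proteins of thyroid hormone, 17 had a probe set and 11 were tested. Between ablation and sham 1 rose and 2 fell (median -0.095), between estradiol and ablation none was called by limma, 2 unadjusted (-0.065), and between estradiol and sham 1 rose and 2 fell (-0.25). In the same order, 9.23%, 0.729% and 5.28% of all genes tested were called higher and 12.8%, 2.73% and 11.9% lower. Between estradiol and ablation 13.1% of all genes tested had an unadjusted p under 0.05. Slc7a5 and Slc3a2 form the amino acid exchanger LAT1 and its heavy chain, which also carry thyroid hormones. Slc7a5 averaged 2.10 ± 0.39 in sham, 0.42 ± 0.23 in ablation and 0.52 ± 0.13 (SD) in estradiol arrays, 3.21-fold lower with ablation (limma adjusted p = 8.03e-14). Slc3a2 averaged 3.79 ± 0.21, 2.58 ± 0.14 and 2.79 ± 0.12, 2.31-fold lower with ablation (adjusted p = 6.13e-15). For both, no ablation array reached the lowest sham array. Slco1a5, an organic anion transporter, went the other way, from -0.74 ± 0.24 to 0.08 ± 0.20 and -0.07 ± 0.29, 1.76-fold higher with ablation (adjusted p = 5.16e-08). None of these 3 differed between estradiol and ablation by the test (adjusted p of 0.79, 0.252 and 0.596), except that Slc3a2 passed after quantile normalization (0.28, adjusted p = 0.0475). The transporter Slc16a10 was above the filter level in 1 array and was not tested.

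Sulfation prepares thyroid hormones for removal, and of 14 genes of conjugation and clearance 11 had a probe set and 5 were tested. Between ablation and sham 2 fell (median -0.068), between estradiol and ablation 1 rose (0.016), and between estradiol and sham 1 fell (-0.063). The matching shares over all genes tested were 12.8% falling, 0.729% rising and 11.9% falling. Sult1a1, a phenol sulfotransferase, averaged 2.57 ± 0.16, 1.70 ± 0.18 and 1.72 ± 0.25 (SD), 1.82-fold lower with ablation (limma adjusted p = 1.11e-10) and 1.80-fold lower with estradiol against sham (2.14e-08). Sult1c2, another cytosolic sulfotransferase, averaged -1.07 ± 0.20 in sham, -2.21 ± 0.69 in ablation and -1.13 ± 0.30 in estradiol arrays. It fell by 1.14 ± 0.18 (SE) with ablation (adjusted p = 6.72e-06) and rose by 1.08 ± 0.22 between ablation and estradiol (adjusted p = 0.00138). Its ablation values were partly below the filter level, and with low values raised to it the differences were -0.69 and 0.63, both still past the threshold. It was the only gene of this pathway, of those listed here as receptors, transporters or clearance genes, called between estradiol and ablation with all arrays and the values as deposited, while Crym and Slc3a2 passed in the alternatives given above.

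**Figure D4:**
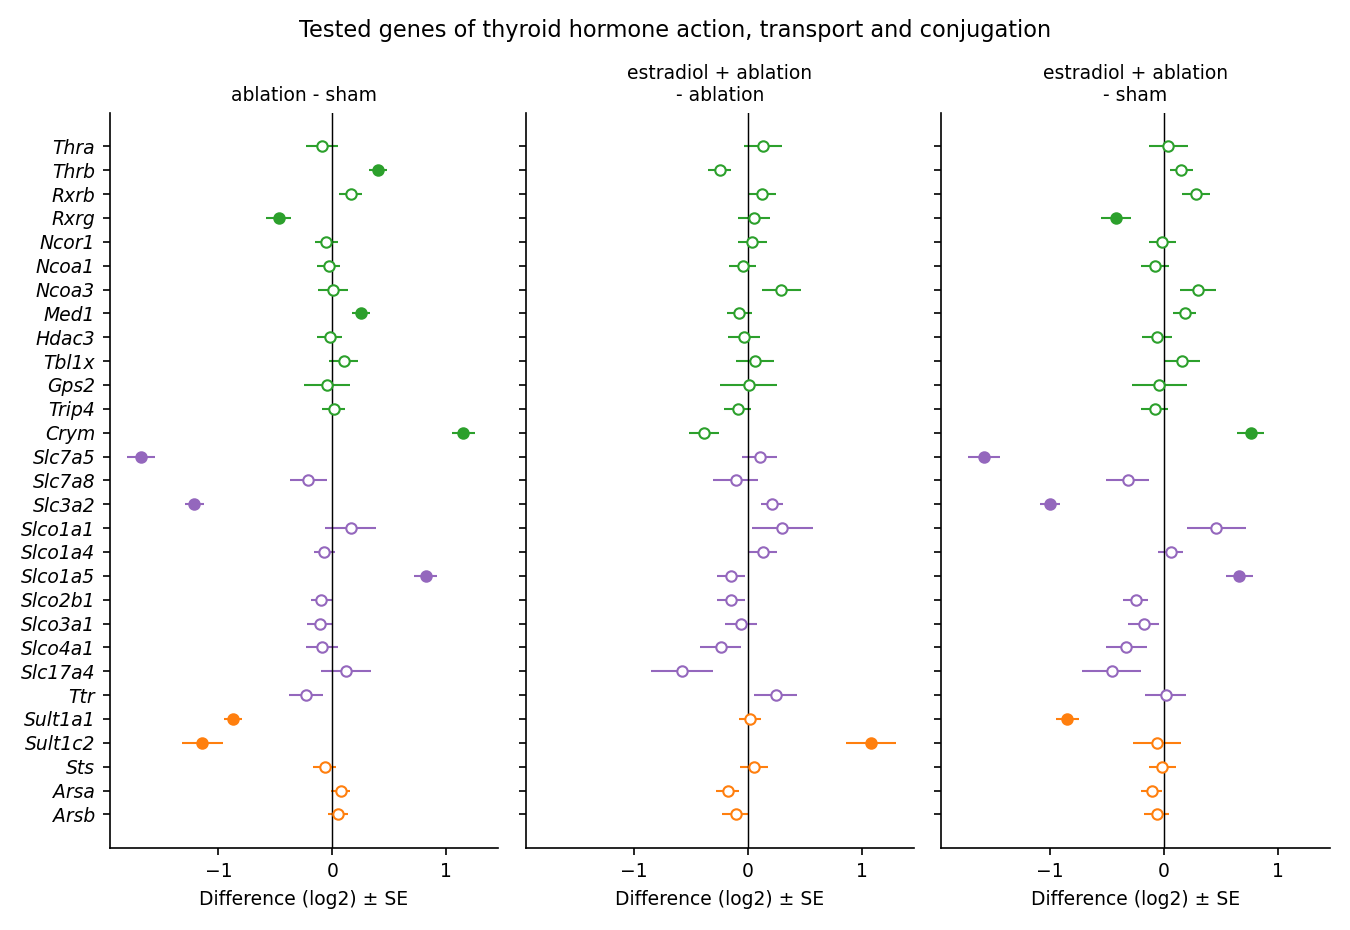
Log2 differences ± SE of the 29 tested receptors and cofactors (green), transporters and binding proteins (purple) and conjugation genes (orange) are plotted for the 3 comparisons, filled where the adjusted p was under 0.05. Slc7a5 at -1.68 and Crym at 1.15 mark the extremes of ablation minus sham, and Sult1c2 at 1.08 is the only filled point of estradiol minus ablation.

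Genes known to respond to thyroid hormone in liver, heart or brain gave a mixed picture. Of 32 listed, 24 were tested: 3 rose and 4 fell with ablation (median 0.0058), 3 fell between ablation and estradiol (-0.088), and 1 rose and 6 fell between sham and estradiol (-0.15). Over all genes tested, 9.23%, 0.729% and 5.28% rose and 12.8%, 2.73% and 11.9% fell in these comparisons. Myh6, a cardiac myosin heavy chain induced by triiodothyronine in heart, averaged 0.49 ± 0.24 in sham, 2.02 ± 0.46 in ablation and -0.16 ± 0.33 (SD) in estradiol arrays. It rose 2.88-fold with ablation (limma adjusted p = 2.64e-11) and was 4.50-fold lower with estradiol than with ablation alone (3.52e-11), with no overlap between those groups. Klf9, a transcription factor induced by thyroid hormone in brain, averaged 2.31 ± 0.23, 2.36 ± 0.17 and 1.90 ± 0.40. Its fall of 0.46 between ablation and estradiol (limma adjusted p = 0.0221) and of 0.40 between sham and estradiol (0.0199) were both lost without estradiol array 1 or 5 (-0.33, adjusted p = 0.141, and -0.28, adjusted p = 0.123, without array 5). After centring on array medians the adjusted p was 0.0723 and 0.0535. Hr, a corepressor induced by thyroid hormone in brain, averaged -0.71, -0.65 and -0.84 and passed no test.

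The other called genes of this list follow with their values. Gja1, the gap junction protein connexin 43, fell by 1.09 ± 0.12 with ablation (SE, limma adjusted p = 1.39e-08). Its estradiol minus ablation difference of 0.37 (0.191) passed after quantile normalization (0.42, adjusted p = 0.0368). Cpt1a, which admits fatty acids to mitochondria, fell by 0.77 ± 0.08 (7.26e-09). Reln, a secreted matrix protein, rose by 0.60 ± 0.12 (0.00022). Cdkn1b, an inhibitor of the cell cycle, rose by 0.32 with ablation (0.0309), lost without any of 6 single arrays (0.28, adjusted p = 0.0679 without ablation array 10), and was 0.71 higher with estradiol than in sham (9.88e-05). Its estradiol minus ablation difference of 0.39 (0.0842) passed after quantile normalization (0.44, adjusted p = 0.00899), after centring on array medians (0.44, adjusted p = 0.0418) and without ablation array 10 (0.44, adjusted p = 0.0457) or estradiol array 5 (0.49, adjusted p = 0.0277). Me1, malic enzyme, fell by 0.31 with ablation (0.0268; -0.27, adjusted p = 0.0573 without ablation array 4, lost too without 1, 6 or 9) and by 0.41 between sham and estradiol (0.0186; -0.38, adjusted p = 0.0528 without estradiol array 5). Nrgn and Bcl3 were named after their values were seen. Nrgn, a neuronal calmodulin-binding protein, fell by 1.09 between ablation and estradiol (0.0478), lost without any of 21 single arrays (-0.85, adjusted p = 0.195 without estradiol array 6), and the difference was -0.40 (adjusted p = 0.227) with low values raised to the filter level. Its estradiol minus sham difference of -0.70 (limma adjusted p = 0.153) passed against only the sham arrays described as control (-0.92, adjusted p = 0.0391). Bcl3, a regulator of NF-kappa-B, fell by 0.32 with ablation (0.0261; -0.29, adjusted p = 0.0544 without ablation array 8, lost too without 2) and by 0.40 between sham and estradiol (0.0289; -0.33, adjusted p = 0.108 without estradiol array 3, lost too without 4 or 6).

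Deiodinases need selenocysteine, and all 17 listed factors of selenoprotein synthesis and selenium supply were tested. Between ablation and sham 1 rose and 2 fell (median -0.015), between estradiol and ablation 1 fell (-0.026), and between estradiol and sham 2 fell (-0.11). All genes tested gave 9.23%, 0.729% and 5.28% rising and 12.8%, 2.73% and 11.9% falling. Secisbp2, which binds the selenocysteine insertion element, averaged 0.39, 0.37 and 0.43 and passed no test. Lrp8, the receptor through which testis takes up selenoprotein P, averaged -0.46 ± 0.22 in sham, -0.24 ± 0.17 in ablation and -0.86 ± 0.47 (SD) in estradiol arrays. It fell by 0.62 ± 0.14 (SE) between ablation and estradiol (limma adjusted p = 0.00297). Its fall of 0.40 between sham and estradiol (0.0367) was lost without any of 8 single arrays (-0.26, adjusted p = 0.192 without estradiol array 5). Sephs2, which makes the selenium donor, fell by 0.42 with ablation (0.033), lost without any of 7 arrays (-0.35, adjusted p = 0.0748 without ablation array 6). Eefsec, the selenocysteine elongation factor, fell by 0.28 (0.0499), lost in 22 of 31 fits that left out 1 array (-0.24, adjusted p = 0.107 without ablation array 1). Ncl, nucleolin, rose by 0.27 with ablation (0.022), lost with only the 4 sham arrays of the irradiated description (0.22, adjusted p = 0.278). Tut7, a uridylyltransferase, fell by 0.32 between sham and estradiol (0.0424), lost without any of 12 arrays (-0.27, adjusted p = 0.128 without estradiol array 5).

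Among 20 other selenoproteins 18 were tested, 4 fell with ablation (median -0.10), none was called by limma between estradiol and ablation, also unadjusted (-0.035), and 4 fell between sham and estradiol (-0.19). For all genes tested the shares were 9.23%, 0.729% and 5.28% rising and 12.8%, 2.73% and 11.9% falling. Between estradiol and ablation 13.1% of all genes tested had an unadjusted p under 0.05. Msrb1, a methionine sulfoxide reductase, averaged 0.94 ± 0.22, 0.13 ± 0.14 and 0.10 ± 0.17 (SD), 1.75-fold lower with ablation (limma adjusted p = 1.03e-09). Selenon fell by 0.59 (2.2e-05) and Gpx1, a glutathione peroxidase, by 0.55 (0.000302) with ablation. Selenok fell by 0.29 (0.0326), lost without any of 8 arrays (-0.24, adjusted p = 0.0754 without ablation array 2), and Selenos by 0.41 between sham and estradiol (0.0396), lost without any of 12 (-0.37, adjusted p = 0.105 without estradiol array 3). Gpx4, the glutathione peroxidase of sperm and membranes, averaged 3.05, 2.81 and 2.87 and passed no test with all arrays. Its ablation minus sham difference passed without sham array 7 (-0.31, limma adjusted p = 0.0239). Selenop, the selenium carrier, averaged 6.14, 6.15 and 5.89, and its ablation minus sham difference of 0.014 turned to -0.17 (adjusted p = 0.028) after quantile normalization.

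Of 25 listed genes known to regulate Dio3 or Dio2 in other tissues, 18 were tested, 3 rose and 2 fell with ablation (median 0.059), none was called by limma between estradiol and ablation, 1 unadjusted (0.014), and 3 rose and 1 fell between sham and estradiol (-0.058). Shares over all genes tested were 9.23%, 0.729% and 5.28% rising and 12.8%, 2.73% and 11.9% falling. Between estradiol and ablation 13.1% of all genes tested had an unadjusted p under 0.05. Esr1 and Esr2, the estrogen receptors, and Pgr, the progesterone receptor, did not pass the filter and were not tested. Esr1 and Pgr were above the filter level in 1 array each, and Esr2 in none. Smad3, a mediator of TGF-beta, rose by 0.45 with ablation (limma adjusted p = 8.98e-05), Foxo3, a forkhead factor, by 0.48 (0.000135) and Dhh, the hedgehog ligand of Sertoli cells, by 0.35 (0.00789). These 3 were also higher in estradiol arrays than in sham, by 0.54 (0.000121), 0.47 (0.00193) and 0.38 (0.0211), and the call of Dhh was lost without estradiol array 2 or 4 (0.34, adjusted p = 0.0695 without array 4). Gli1, a hedgehog effector, fell by 0.91 between sham and estradiol (0.0138), which rested on estradiol array 6 (-0.50, adjusted p = 0.108 without it). Tgfb2 fell by 0.65 with ablation (0.0261). Its lowest ablation array stood at -3.53 against a group mean of -0.96 ± 0.90 (SD, 0.23 in sham), though no single array left out lost the call. Its estradiol minus sham difference of -0.40 (limma adjusted p = 0.35) passed with only the compared groups (0.0357) and without ablation array 9 (0.0339). Hif1a, the hypoxia factor, fell by 0.32 with ablation (0.0293), lost without ablation array 4, 6 or 9 (-0.28, adjusted p = 0.0621 without array 6). Between estradiol and ablation Hif1a passed after quantile normalization (0.29, adjusted p = 0.0458). With only the 4 sham arrays of the irradiated description the ablation calls of Tgfb2 (-0.67, limma adjusted p = 0.236) and Dhh (0.25, adjusted p = 0.269) were lost. So were the calls between sham and estradiol of Foxo3 (0.40, adjusted p = 0.0924), Dhh (0.29, adjusted p = 0.308) and Gli1 (-0.91, adjusted p = 0.147). With only the 10 others the ablation calls of Tgfb2 (-0.64, adjusted p = 0.0743) and Hif1a (-0.27, adjusted p = 0.143) were lost.

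Markers of testis cell types moved with the groups too. Of all genes tested, 9.23% rose and 12.8% fell with ablation. Between ablation and estradiol 0.729% rose and 2.73% fell, and between sham and estradiol 5.28% and 11.9%. An unadjusted p under 0.05 was reached in these comparisons by 33.3%, 13.1% and 28.8% of all genes tested. Of 6 tested markers of undifferentiated spermatogonia, 2 rose between ablation and estradiol, 5 rose with ablation and 5 between sham and estradiol, and their summed level (log2) was 1.29 to 2.14 in sham, 1.72 to 2.41 in ablation and 2.3 to 2.99 in estradiol arrays. Sox3, among the genes closest to Dio3 over all arrays, is one of these markers. That ranking favours genes highest with estradiol, for which Dio3 was chosen, so nothing is read from it. Within sham, ablation and estradiol arrays the r of Sox3 with Dio3 was 0.372, -0.462 and 0.346. No other marker of this list was among the closest genes named above by either correlation. Of 7 Leydig cell markers, 3 fell between ablation and estradiol and 5 fell with ablation, where 2 rose, and the sums were 5.77 to 6.81, 5.52 to 5.97 and 5.05 to 6.09. Of 6 Sertoli cell markers, 1 rose between ablation and estradiol, 1 with ablation and 2 between sham and estradiol (5.82 to 7.32, 6.80 to 7.22 and 6.16 to 7.20). Of 4 spermatid markers, 1 fell between ablation and estradiol and none was called elsewhere, and their sums ran from -0.76 to 6.33, from -0.50 to 4.54 and from -0.79 to 0.02. Without sham array 1 and ablation array 2, the ends of the first principal component, left out after the data were seen, Dio3 was 1.57 above ablation, 1.94 above sham, and 0.37 higher in ablation than in sham (limma adjusted p = 0.14). Macrophage markers fell with ablation in 6 of 6 (3.59 to 4.22, 3.04 to 3.51 and 3.05 to 3.45), myoid markers in 3 of 5 (3.47 to 4.49, 3.10 to 3.91 and 3.36 to 3.73) and endothelial markers in 2 of 4 (1.30 to 1.94, 1.14 to 1.62 and 1.09 to 1.68), with none called between estradiol and ablation. Thyroid markers were called in no comparison by limma, also unadjusted (2 tested, sums -0.52 to 0.18, -0.40 to 0.20 and -0.23 to 0.35), and none of the epididymal markers passed the filter (-2.38 to -0.96, -2.46 to -1.03 and -2.45 to -1.53). Of the defining markers, 6 of 8 for Sertoli and 5 of 7 for Leydig cells were above the filter level in all arrays, and 2 of 4 for thyroid and 2 of 3 for epididymis in none. The part of these cell types in the Dio3 values was not tested.

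Over the whole array, 1947 probe sets rose and 2181 fell with ablation. Between ablation and estradiol 126 rose (0.592%) and 1047 fell (4.92%), so 10.7% of 1173 calls (5.52% of probe sets) were higher, against 24.0% after quantile normalization and 20.1% after centring on array medians. Between sham and estradiol 882 rose (4.15%) and 2211 fell (10.4%), so 28.5% of 3093 calls (14.5%) were higher, against 47.2% and 36.9%. Array medians lay between -1.44 and -1.24, and the number of arrays limits the precision.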

How the data were processed

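The values are those of 31 arrays in 1 deposited table: MAS5 signals per the submitters' processing notes, which the authors put on a logarithmic scale, read here as log2. The MAS5 version, the base of the logarithm and the scaling reference are not given in the sources used here. Folds rest on the reading as log2. No detection calls were used, and the values were not normalized further.

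Of 31099 probe sets 57 controls were left out, and 21269 of 31042 passed the filter (40th percentile of the own array, -1.93 to -1.75, in at least 6 arrays). Symbols came from the platform annotation (20826 probe sets with 1 symbol, 436 with several, 9780 with none) and were updated by Entrez number for 20758. For a gene with several kept probe sets the one of highest mean was used (11387 genes). Groups follow the labels. limma 3.58.1 in R 4.3.3 (lmFit, eBayes with trend, 3 groups, all arrays) gave 2-sided p-values, adjusted over the kept probe sets (Benjamini and Hochberg) and called under 0.05. For Dio1 and Dio2, below the filter, 2-sided permutation tests of the mean were used (scipy 1.17.1, exact for estradiol comparisons, 100000 draws for ablation against sham), and intervals from the fit without a filter. The pipeline was tested on simulated data.

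Genes named are the deiodinases, up to 6 called genes per list by adjusted p, 10 fixed genes and the 5 closest to Dio3 by either correlation. Members and lists were chosen with earlier results of these data known. Alternatives covered the filter, scaling, low values, variance prior, arrays in the fit, the replicate block, the sham descriptions and each array left out. Promoters came from RefSeq (GRCr8).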

Additional observations from a re-analysis of the deposited data

Results flagged for a closer look

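Among 132 combinations of a group and a named gene, with groups of 4 to 10 arrays, 4 had 1 array far from the others by Dixon's test at the 95% level, where chance flags about 1 in 20 groups. Gli1 had its lowest estradiol array at -3.77 (array 6), and among the 4 sham arrays described as irradiated its lowest was -1.41. Thra had its highest estradiol array at 0.96. Thrb had its lowest sham array among those described as irradiated at -0.08. None of the deiodinase values was set apart in this way in the groups of that size, and groups of more than 10 arrays were not tested.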

How the results depend on the processing

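Dio3 stayed above ablation and above sham with estradiol under every alternative run, and its ablation minus sham difference stayed positive with an adjusted p above 0.05. Leaving out 1 array gave 1.48 to 1.59, 1.82 to 1.95 and 0.28 to 0.43 (adjusted p 0.0611 to 0.194). With low values raised to the filter level, estradiol minus sham was 1.49. Same-numbered deviations correlated at -0.0856 to 0.0467 (11 pairs of sham and ablation), -0.182 to 0.0594 (6 of ablation and estradiol) and -0.0107 to 0.376 (6 of sham and estradiol, 3 over 0.1). Replicate numbers thus showed no pairing of ablation arrays with sham or estradiol arrays. Whether they pair sham with estradiol arrays is not settled by these values. With the replicate block, Dio3 differed by 1.61, 1.87 and 0.26 (adjusted p = 0.262), and 3185 probe sets were called with ablation, 878 between ablation and estradiol and 2349 between sham and estradiol. Against the sham arrays described as irradiated alone, 2345 were called with ablation and 1702 with estradiol, with fewer samples. Leaving out 1 array gave 3724 to 4455, 830 to 1242 and 2540 to 3197 calls.

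The unadjusted permutation p of Dio2 with ablation rose above 0.05 against the sham arrays described as control (0.93, p = 0.0549) or as irradiated (0.80, p = 0.189) and without ablation array 4, 8, 9 or 11 (range 0.74 to 1.03 over all arrays left out, p 0.0114 to 0.0649). The adjusted p-values, which also account for the other probe sets, were 0.109 in the fit with no filter (0.90) and 0.245 with the replicate block added (0.87). Dio1 between estradiol and ablation ranged from -0.041 to 0.16 and reversed without ablation array 1 (-0.0097) or 7 (-0.041). Selenop between ablation and sham reversed to -0.17 with quantile normalization; the cause was not tested. Of 57 calls of named list genes, 37 were kept in every fit that left out 1 array and 30 in every setting. Other probe sets could not be tried, since each deiodinase has 1. For Dio1 and Dio2 raised low values leave no difference, and the 60th percentile drops them.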
